A study of Mus musculus with 8 samples.

Results

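The eIF1A-like group of 2-cell-stage genes was taken as 6 listed symbols, Gm8300, Gm5662, Gm2016, Gm2022, BB287469 and Gm20767, and all 6 were present in both count tables, among 24421 gene symbols. They were followed in mouse embryonic stem cells grown in 2i/LIF, a medium that keeps the cells in a naive pluripotent state, for 3 to 4 passages before RNA was selected on polyA beads. Ubc9-depleted cells (v6.5 line, with doxycycline, DOX, for 72 hours) were compared with Ubc9 control cells, also v6.5 and labelled WT; Ubc9 is the E2 enzyme that attaches SUMO to its targets. H1 TKO cells, a triple knockout of the linker histones H1.2, H1.3 and H1.4, were compared with H1 control cells, also labelled WT, and both of these lines came from an earlier publication. Each of the 4 groups had 2 libraries, and the libraries of the Ubc9 and H1 cells were made with different kits, ScriptSeq v2 for Ubc9 and Lexogen SENSE V2 for H1. Doxycycline in the Ubc9 control cells, the construct behind the depletion and the origin of paired libraries from separate cultures are not stated, so each p-value measures only the spread between libraries, which may be technical.

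eIF1A is a small translation initiation factor that binds the decoding site of the small ribosomal subunit, where with eIF1 it helps the scanning complex choose a start codon, and it later helps eIF5B to join the large subunit. The mouse genome carries, beside the canonical genes Eif1a and Eif1ax, a cluster of predicted eIF1A-like genes that are known as transcripts of the major wave of zygotic genome activation in the 2-cell embryo. Cultures of mouse embryonic stem cells contain rare cells that express the same genes together with Zscan4 and other targets of the transcription factor Dux.

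Of the symbols, 5 matched the name by sequence and 1 did not. Gm8300, BB287469, Gm2016, Gm2022 and Gm5662 lay within 760.2 kb of chromosome 12, and each had a coding sequence of 435 bases with no length difference among the 5. Any pair of them was 97.2% to 99.1% identical in coding sequence, with 4 to 12 differing bases, and only 16 of the 435 positions (3.68%) varied among the 5. They were 93.6% to 94.9% identical to Eif1a and 83.7% to 85.1% identical to Eif1ax. In GRCm38 with GENCODE M21, Gm8300 was at chr12:87514316-87518266 on the plus strand, BB287469 at chr12:87816577-87820676 on the plus strand, Gm2016 at chr12:87874072-87877859 on the plus strand, and Gm5662 at chr12:88270640-88274500 on the minus strand, each a protein-coding gene with 2 exons. Gm2022, at chr12:87895370-87895804 on the plus strand, was annotated as a single exon that holds the coding sequence alone.

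The stretch below, bases 177 to 276 of the 435 coding bases in GRCm38, is shown because it held the most varying positions of any 100 bases and lets a reader see how few letters tell the copies apart. Capitals mark positions that vary among the 5 copies, and Gm2022 has the same letters as Gm2016 throughout the stretch.
Gm8300 (chr12:87517073-87517172, plus strand): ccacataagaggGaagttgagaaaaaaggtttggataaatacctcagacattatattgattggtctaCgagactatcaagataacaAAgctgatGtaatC
Gm5662 (chr12:88271713-88271812, minus strand): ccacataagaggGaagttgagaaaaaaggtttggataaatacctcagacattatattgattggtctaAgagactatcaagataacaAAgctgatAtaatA
Gm2016 (chr12:87876761-87876860, plus strand): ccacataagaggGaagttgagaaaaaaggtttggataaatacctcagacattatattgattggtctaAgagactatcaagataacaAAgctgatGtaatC
BB287469 (chr12:87819497-87819596, plus strand): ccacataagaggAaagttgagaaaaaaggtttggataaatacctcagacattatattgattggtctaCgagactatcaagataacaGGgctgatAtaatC
The canonical gene Eif1ax, on the X chromosome and interrupted by introns here, reads as follows over the same bases, with capitals at the 14 positions that differ from Gm8300.
Eif1ax: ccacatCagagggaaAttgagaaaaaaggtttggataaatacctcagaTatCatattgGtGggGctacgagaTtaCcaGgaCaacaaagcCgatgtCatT

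Gm20767 was not an eIF1A-like gene by sequence. It lay at chr13:120140246-120155335 on the plus strand, a protein-coding gene with 2 annotated transcripts and 3 exons in the longer, with a coding sequence of 510 bases that had no blastn match to the chromosome 12 copies. Its closest coding sequences in the count tables belonged to AF067061 (95.5% identical), Tcstv3 (93.7%) and Tcstv1 (93.6%), genes of a 2-cell-stage family named for transcripts of the 2-cell embryo. It is therefore described below as the Tcstv-like companion. The first 80 coding bases of Gm20767 and Tcstv3 are shown because they make the kinship visible, with capitals at the 4 positions where the pair differ.
Gm20767 (chr13:120154627-120154706, plus strand): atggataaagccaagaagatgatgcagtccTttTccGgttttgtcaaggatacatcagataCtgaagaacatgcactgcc
Tcstv3 (chr13:120317567-120317646, plus strand): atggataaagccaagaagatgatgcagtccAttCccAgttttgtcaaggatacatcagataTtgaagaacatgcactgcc

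Because the copies are so alike, the count of a single symbol is less certain than the count of the group. Of all 50-base windows of the annotated transcripts, 73.4% of those of Gm8300 occurred in no other annotated gene, against 22.1% for Gm5662, 18.7% for Gm2016, 3.39% for BB287469 and 2.85% for Gm2022. Gm5662 and Gm2016 shared most of their windows with each other, at 72.1% of the windows of Gm5662 and 75.2% of those of Gm2016. BB287469 shared 94.3% of its windows with Gm4027, a gene of identical coding sequence that had 0 counts in all 8 libraries. Windows shared with Eif1a made up 13.7% of Gm2022 and at most 3.61% of the other 4 copies. Gm20767 had 29.8% of its windows to itself, shared 60.8% with Gm21761 and shared 0 with the other members. With 100-base windows the part found in no other gene was larger, at 89.2% for Gm8300, 41.6% for Gm5662, 35.3% for Gm2016, 33.3% for Gm2022, 8.68% for BB287469 and 56.1% for Gm20767. At that length 0 windows were shared with Eif1a. The sources used here give neither the read length nor how a read that fits several genes was counted, so values are given for each symbol and for the sum.

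**Figure D1:**
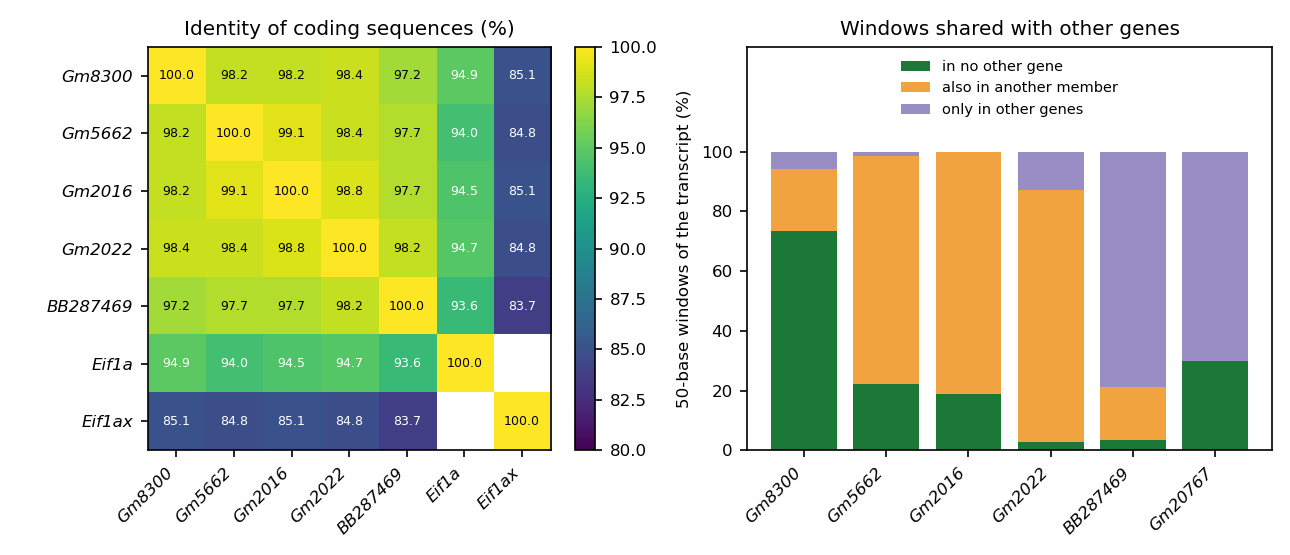
Left, percent identity between the coding sequences of the 5 chromosome 12 copies, Eif1a and Eif1ax (the pair Eif1a and Eif1ax was not compared). Right, for each member, the percent of 50-base transcript windows found in no other gene, also in another member, or only in genes outside the members; Gm8300 has 73.4% of its windows to itself and Gm2022 2.85%.

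Total counts were 88410194 and 75972231 in Ubc9-depleted libraries, 102780141 and 99269669 in Ubc9 control libraries, 44441713 and 68445181 in H1 TKO libraries, and 56032400 and 52960206 in H1 control libraries, so that 3 counts correspond to 0.0292 to 0.0675 counts per 1000000 of the library total (CPM). Ubc9-depleted library 1 stood apart with 23462 genes above 0, while its partner and the controls had 18584 to 19591, and the 2 H1 control libraries differed from each other more than any other pair (chi-square per degree of freedom 249, against 16.8 to 67.7). Counts of calls among the members and some lists are also given without these libraries. The linker histone genes followed the H1 labels: Hist1h1c, Hist1h1d and Hist1h1e had 0 counts in both H1 TKO libraries and 100 to 231 counts in H1 control libraries. Summed embryonic stem cell markers (10 of 10 in the tables, all above 0 in every group) were at 5266 to 5342 CPM in Ubc9-depleted and 5608 to 5828 CPM in Ubc9 control libraries, and at 11604 to 11719 CPM in H1 TKO and 6389 to 6965 CPM in H1 control libraries. In the bulk samples, more cells that express a gene and more RNA per cell cannot be told apart.

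All 6 members were higher after Ubc9 depletion, by 11- to 17-fold, and in none did the groups overlap. Gm8300 was at 115 and 113 CPM in Ubc9-depleted libraries and at 6.11 and 7.01 CPM in Ubc9 control libraries. Its log2 fold change was 4.12 ± 0.13 (SE), with an adjusted p of 1.94e-20 in edgeR's quasi-likelihood test, and it was the copy with the most windows of its own. Gm5662 was at 118 and 112 CPM in Ubc9-depleted libraries and at 7.64 and 8.37 CPM in Ubc9 control libraries, a log2 fold change of 3.85 ± 0.13. Both stood at more than 100 CPM in the depleted cells and below 10 CPM in the controls, with the 2 libraries of each group close together.

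Gm2016 was at 36.7 and 37.4 CPM in Ubc9-depleted libraries, against 2.58 and 2.91 CPM in Ubc9 control libraries, and Gm2022 was at 33.6 and 34.0 CPM, against 1.56 and 2.31 CPM. Their log2 fold changes were 3.76 ± 0.12 and 4.12 ± 0.14, close to those of Gm8300 and Gm5662. BB287469 had the lowest counts of the copies, also per kb of exon. Only 3.39% of its 50-base windows occurred in no other gene, so shared reads limit this order. It had 439 and 297 counts (4.38 and 3.89 CPM) in Ubc9-depleted libraries and 27 and 20 counts (0.278 and 0.217 CPM) in Ubc9 control libraries. Its log2 fold change was 4.05 ± 0.42. Gm20767, the Tcstv-like companion, was at 19.7 and 16.2 CPM in Ubc9-depleted libraries and at 1.36 and 1.87 CPM in Ubc9 control libraries. Its log2 fold change, 3.48 ± 0.16, was the smallest of the 6, and adjusted p-values of these 4 members in edgeR's quasi-likelihood test were between 3.67e-20 and 8.25e-09.

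The 6 calls stand against a background in which 21.1% of the 16499 genes tested were called higher and 15% lower, and in which both depleted libraries lay above both controls for 36.7% of genes. The median log2 fold change was 3.95 over the 6 members and 0.06 over all genes tested, and the members ranked between 447 and 714 of 16499 from the highest fold change. All 6 reached the filter's limit of 0.107 CPM in both control libraries as well, so none was tested only because it was high after depletion. Without Ubc9-depleted library 1, which had the excess of detected genes, log2 fold changes were 3.32 to 4.13 and all 6 calls held. Summed fibroblast markers (10 of 10 in the tables) were at 35.9 to 40.0 CPM in Ubc9-depleted and 18.1 to 18.4 CPM in Ubc9 control libraries, summed primitive endoderm markers (8 of 8) at 21.6 to 28.9 and 13.2 to 13.4 CPM, and summed trophoblast markers (7 of 8) at 9.48 to 12.5 and 11.6 to 13.0 CPM, with none of these markers at 0 in both libraries of a group; their part in the members' change was not tested.

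**Figure D2:**
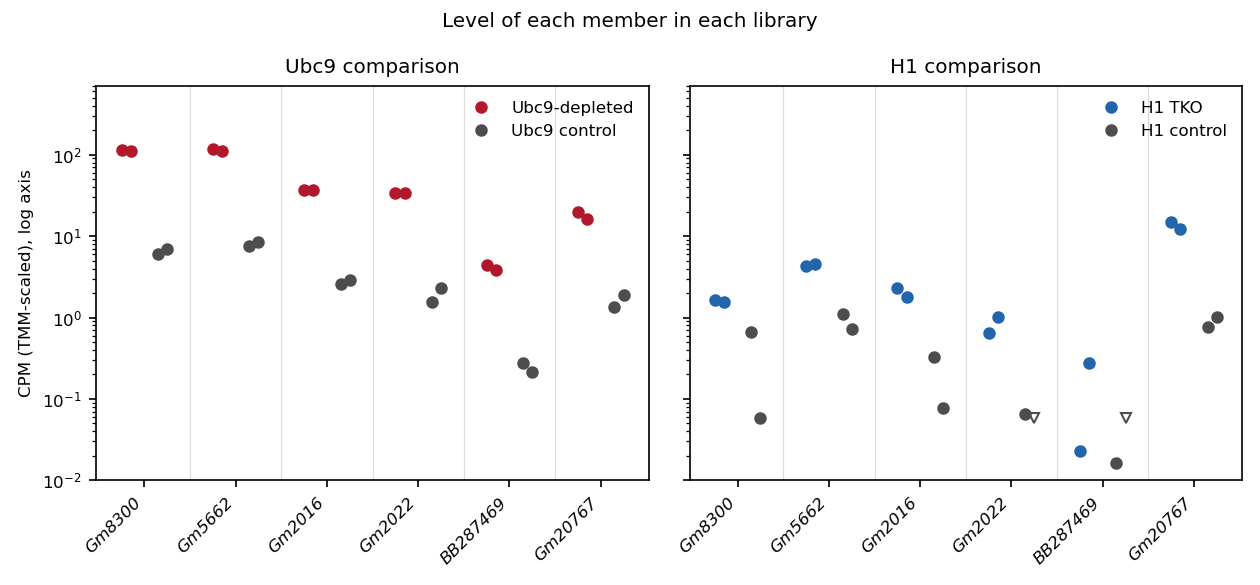
CPM (TMM-scaled, log axis) of each member in each library, with case libraries left of control libraries; open triangles mark 0 counts, drawn at the level of 3 counts. For each member the Ubc9-depleted points lie above the Ubc9 control points. In the H1 panel the control points of the eIF1A-like copies run from 0 counts to 1.12 CPM. Both H1 TKO points lie above both control points for the 5 members tested there. Gm20767 lies highest in H1 TKO libraries, at 14.9 and 12.4 CPM.

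In H1 TKO cells 5 of 6 members had enough counts to be tested and 4 were called higher (Gm5662, Gm2016, Gm2022 and Gm20767), against a background of 8.59% of 14800 genes called higher and 8.43% called lower. Of the 5, 3 (Gm8300, Gm2016 and Gm2022) reached the filter's limit of 0.183 CPM in both H1 TKO libraries but not in both control libraries: Gm8300 and Gm2016 reached it in 1 control library and Gm2022 in 0. Gm2022 thus had to be higher to be tested, and the count of these 3 is a description. Both H1 TKO libraries lay above both controls for all 5 members tested, and for 31.4% of all genes tested.

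Gm20767 had the smallest adjusted p of the members, with 14.9 and 12.4 CPM in H1 TKO libraries and 0.755 and 1.03 CPM in H1 control libraries. Its log2 fold change was 3.94 ± 0.32, with an adjusted p of 6.85e-04 in edgeR's quasi-likelihood test, and it was called under every alternative tried. Gm5662 was at 4.31 and 4.50 CPM in H1 TKO libraries and at 1.12 and 0.718 CPM in H1 control libraries. It rose by a log2 fold change of 2.26 ± 0.39 (adjusted p 0.00937, edgeR), which also held under every alternative. These 2 members were the only ones of the 6 to reach the filter's limit in both H1 control libraries.

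The other copies rested on few control reads. Gm2016 had 102 and 117 counts (2.33 and 1.78 CPM) in H1 TKO libraries and 20 and 4 counts (0.328 and 0.0776 CPM) in H1 control libraries, with a log2 fold change of 3.30 ± 0.72 and an adjusted p of 0.0227 (edgeR), and 0.0522 without H1 TKO library 1. Gm2022 had 28 and 66 counts (0.639 and 1.01 CPM) in H1 TKO libraries and 4 and 0 counts in H1 control libraries. Its log2 fold change was 4.49 ± 1.13 with an adjusted p of 0.0357 (edgeR), and 0.214 without H1 TKO library 2.

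Gm8300 had 71 and 103 counts (1.62 and 1.57 CPM) in H1 TKO libraries and 40 and 3 counts (0.657 and 0.0582 CPM) in H1 control libraries, so the TKO libraries were close together and the control libraries far apart. Its log2 fold change of 2.13 ± 0.91 was not called (adjusted p 0.157, edgeR), and without H1 control library 1, which leaves a control of 3 counts, it was called (adjusted p 4.73e-06), as it was without the filter, in 1 fit of 8 libraries and with a replicate block (adjusted p 0.0387, 0.0146 and 0.0107, edgeR). BB287469 had 1 and 18 counts in H1 TKO libraries and 1 and 0 in H1 control libraries, and was below the filter. In 1 fit of all 8 libraries, where it was tested, it was called higher (log2 fold change 3.94, adjusted p 0.0481, edgeR). So were the other 5 members, in a fit that called 13% of all genes higher. Without the filter BB287469 was not called (3.79, adjusted p 0.303, edgeR). Over the groups its counts give a ratio of 19.5 (19 counts against 1), with a 95% interval of 3.11 to 812 that covers counting error only.

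Without H1 control library 1, 5 of 6 members tested were called higher, and 4 of 6 without control library 2, where the share of all genes called higher was 23.4% and 25.8% instead of 8.59%. Without H1 TKO library 1, 3 of 6 members tested were called, and 3 of 5 without TKO library 2, where the share of all genes was 4.12% and 4.03%. In H1 TKO libraries summed trophoblast markers were at 18.3 to 20.5 CPM, against 4.19 to 4.25 CPM in H1 control libraries, with Elf5 at 0 in both TKO libraries. Summed primitive endoderm markers were at 15.3 to 17.03 CPM in H1 TKO and 8.22 to 9.40 CPM in H1 control libraries. Summed fibroblast markers were at 8.56 to 9.27 CPM in H1 TKO and 12.9 to 21.9 CPM in H1 control libraries, with Postn at 0 in all 4 libraries and Dcn and Lum at 0 in both controls. Their part in the members' difference was not tested.

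Whether a member moved differently in the H1 TKO and Ubc9-depleted cells was tested in 1 fit of all 8 libraries, in which no control library is shared. Gm5662 rose more after Ubc9 depletion, by a difference of 1.58 ± 0.29 on the log2 scale (adjusted p 0.00505, edgeR), and it was the only 1 of 6 members called, against 8.08% of 16974 genes called in that direction and 6.43% in the other. Gm8300 had a larger difference of 2.02 ± 0.67 that was not called (adjusted p 0.0699, edgeR). It was called with a replicate block (adjusted p 0.00342, edgeR), without the filter (3.33e-06) and in 5 of the 8 fits that left out a library, and was -0.69 (adjusted p 0.624) without H1 control library 1. The other 4 differences were between -0.48 and 0.48 with adjusted p-values of at least 0.360 (edgeR), and a p-value that misses the threshold does not show that the responses were alike. Line, kit and comparison cannot be told apart here.

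**Figure D3:**
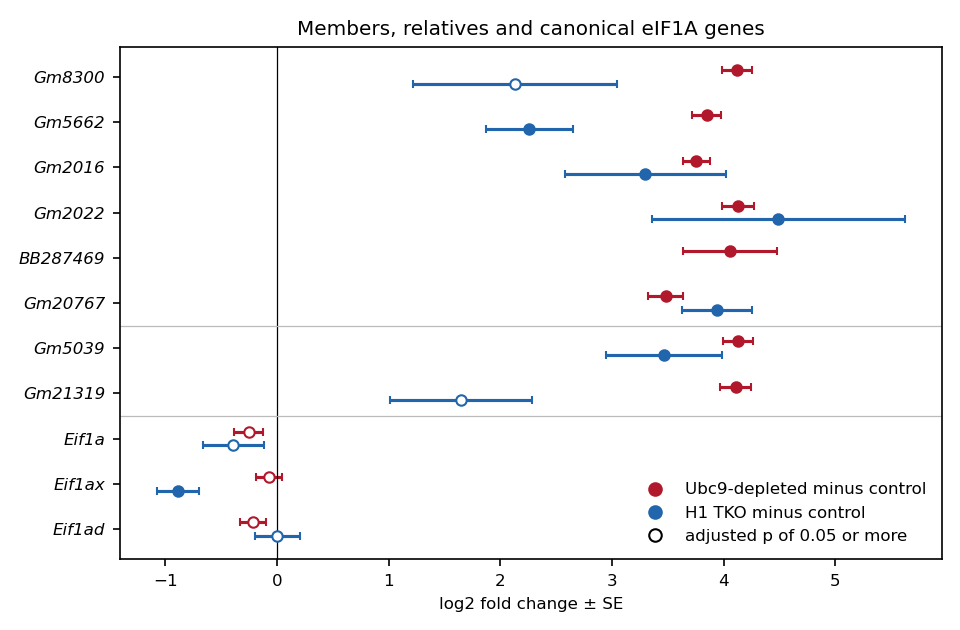
Log2 fold changes with SE (n = 2 libraries per group) of the 6 members, the close relatives Gm5039 and Gm21319, and the genes Eif1a, Eif1ax and Eif1ad; filled points had an adjusted p under 0.05 in edgeR. BB287469 has no H1 point because it was below the filter there, and the members in the Ubc9 comparison lie between 3.48 and 4.12.

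**Figure D4:**
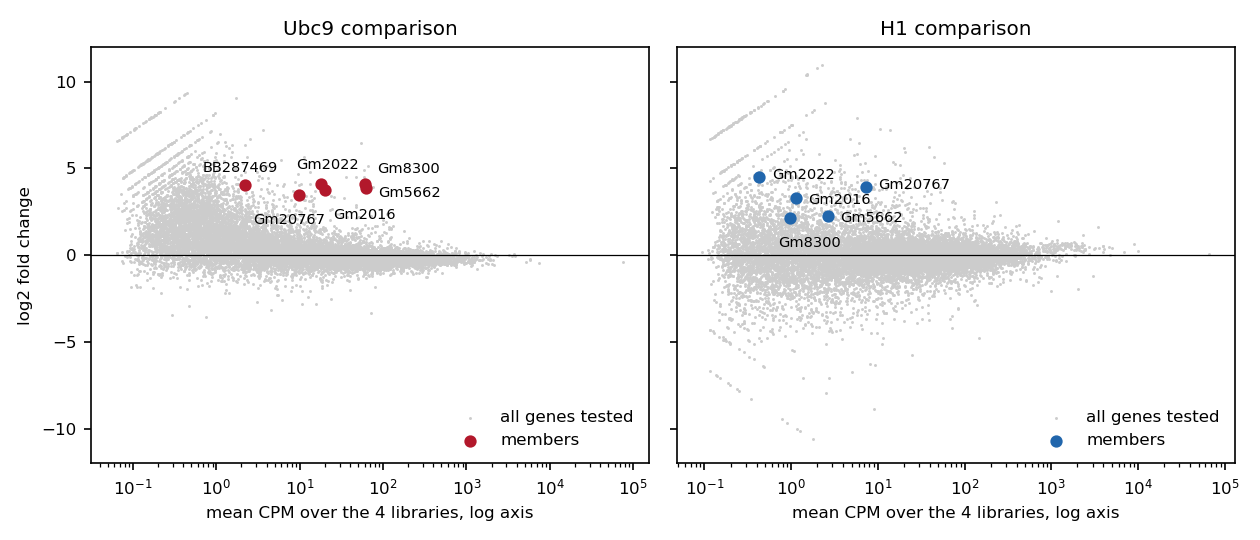
Log2 fold change against mean CPM (log axis) over the 4 libraries of each comparison, for all genes tested (grey) and for the members. The 6 members in the Ubc9 panel lie between 3.48 and 4.12 and rank between 447 and 714 of 16499 genes by fold change.

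Summed over the 6 members, counts were 32841 and 24159 in Ubc9-depleted libraries and 1899 and 2090 in Ubc9 control libraries, and 1044 and 1413 in H1 TKO libraries and 179 and 97 in H1 control libraries. The sum averaged 322 ± 8.24 CPM in Ubc9-depleted and 21.1 ± 2.23 CPM in Ubc9 control libraries (SD, n = 2 each), a log2 fold change of 3.93 ± 0.14. In the H1 cells it averaged 22.7 ± 1.62 CPM in H1 TKO and 2.41 ± 0.75 CPM in H1 control libraries, a log2 fold change of 3.23 ± 0.30. The sum thus moved 15.3-fold in one comparison and 9.38-fold in the other, without a test of the sum.

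The make-up of the sum was unlike between the comparisons. Gm20767 held 57.6% to 62.5% of the sum in H1 TKO libraries and 25.7% to 54.6% in H1 control libraries, but 5.11% to 6.02% in Ubc9-depleted and 6.95% to 8.23% in Ubc9 control libraries. Without it, the 5 eIF1A-like copies summed to 9.03 ± 0.15 CPM in H1 TKO and 1.52 ± 0.94 CPM in H1 control libraries, a log2 fold change of 2.56 ± 0.45, or 5.91-fold. In the Ubc9 cells the 5 copies summed to 304 ± 5.70 CPM after depletion and 19.5 ± 1.87 CPM in controls, a log2 fold change of 3.96 ± 0.14, or 15.6-fold. Within the 5 copies, Gm8300 held 37.4% to 37.6% in Ubc9-depleted and 33.6% to 33.7% in Ubc9 control libraries, but 17.2% to 18.2% in H1 TKO and 6.82% to 30.1% in H1 control libraries. Gm5662 held 37.3% to 38.4% in Ubc9-depleted and 40.2% to 42.0% in Ubc9 control libraries, and 48.3% to 49.2% in H1 TKO and 51.1% to 84.1% in H1 control libraries. The v6.5 and H1 lines and their kits differ, so these shares are set side by side without a test.

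**Figure D5:**
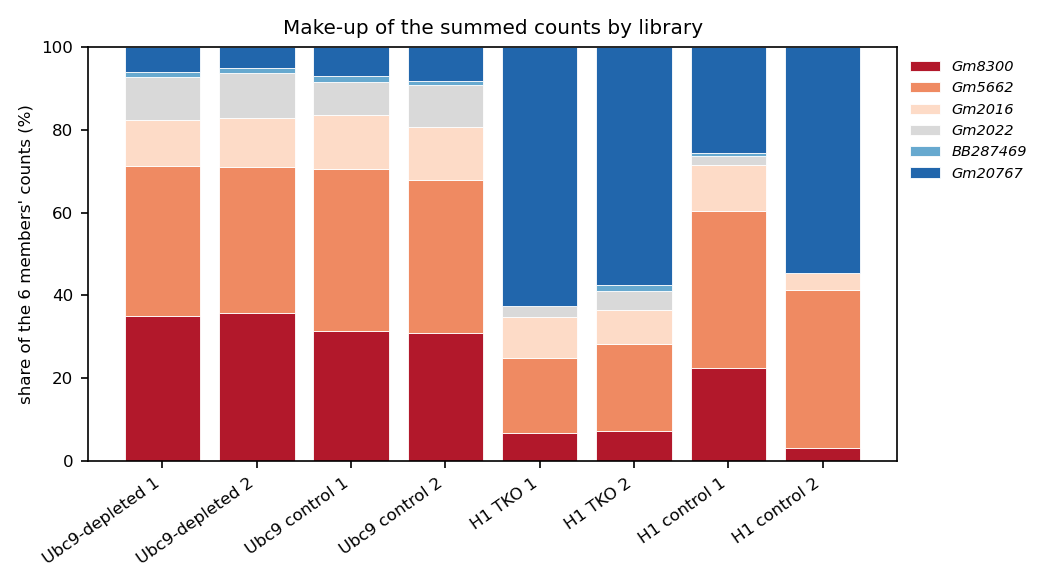
Percent of the 6 members' summed counts that each member holds, by library. Gm8300 and Gm5662 make up most of the sum in the 4 Ubc9 libraries, and Gm20767 holds 57.6% to 62.5% in the H1 TKO libraries.

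Levels can be ordered between members per kilobase of annotated exon (CPM per kb), with shared reads as a limit and with Gm2022 left out because its model holds coding bases alone. In Ubc9-depleted libraries Gm5662 (62.6 ± 2.43 CPM per kb) and Gm8300 (60.9 ± 0.88) did not differ beyond their spread, and Gm2016 (21.0 ± 0.27), Gm20767 (12.6 ± 1.78) and BB287469 (2.23 ± 0.19) followed. In Ubc9 control libraries the order was the same, with Gm5662 at 4.35 ± 0.28 CPM per kb and BB287469 at 0.134 ± 0.023. In H1 TKO libraries Gm20767 came first at 9.57 ± 1.24 CPM per kb, ahead of Gm5662 (2.39 ± 0.071), Gm2016 (1.16 ± 0.22), Gm8300 (0.852 ± 0.019) and BB287469 (0.0803 ± 0.096). In H1 control libraries Gm20767 (0.625 ± 0.14 CPM per kb) and Gm5662 (0.498 ± 0.15) overlapped, as did Gm8300 (0.191 ± 0.23) and Gm2016 (0.115 ± 0.10).

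Other eIF1A-like copies on chromosome 12 were also called higher after Ubc9 depletion (2 of 2 tested, against 21.1% of all genes). In H1 TKO cells 1 of 2 tested was called higher, against 8.59% of all genes. Gm5039, 97.5% identical in coding sequence to its closest member, averaged 127 ± 2.42 CPM in Ubc9-depleted and 7.24 ± 0.26 CPM in Ubc9 control libraries (log2 fold change 4.13 ± 0.13, adjusted p 1.48e-20, edgeR). In H1 TKO libraries it had 8.95 and 6.57 CPM, against 1.03 and 0.349 CPM in H1 control libraries, and it rose by 3.47 ± 0.52 on the log2 scale (adjusted p 0.00549, edgeR), and by 4.46 and 2.90 without H1 control library 1 and 2, called in both. Gm21319, 97.0% identical, averaged 25.0 ± 0.26 CPM in Ubc9-depleted and 1.45 ± 0.22 CPM in Ubc9 control libraries (4.11 ± 0.14, adjusted p 5.27e-20, edgeR). In the H1 cells it was at 1.21 and 1.40 CPM in TKO libraries and at 0.574 and 0.252 CPM in control libraries. That log2 fold change of 1.65 ± 0.64 was not called (adjusted p 0.123, edgeR). In 1 fit of 8 libraries both Gm5039 and Gm21319 were called higher in H1 TKO cells, against 13% of all genes. Gm21319 was called as differing between the comparisons (2.46 ± 0.45, adjusted p 0.00475, edgeR), as Gm5662 was, and Gm5039 was not (0.67, adjusted p 0.359). With these relatives and Gm4027 added, the sum of 8 eIF1A-like genes had log2 fold changes of 4.02 ± 0.14 in the Ubc9 cells and 2.78 ± 0.44 in the H1 cells.

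The canonical eIF1A genes did not rise with the copies. Eif1a was at 330 and 390 CPM in Ubc9-depleted libraries and at 432 and 426 CPM in Ubc9 control libraries, a log2 fold change of -0.25 ± 0.13 that was not called (adjusted p 0.131, edgeR), was called lower by DESeq2 (-0.28, adjusted p 0.0465) and was called lower without Ubc9-depleted library 2 (-0.46, adjusted p 8.06e-04). In the H1 cells Eif1a was at 158 and 162 CPM in H1 TKO libraries and at 267 and 152 CPM in H1 control libraries, and its log2 fold change of -0.39 was 0.07 without control library 1 and -0.74 (adjusted p 6.87e-07, edgeR) without control library 2. Eif1ax, the X-linked gene, did not pass the test in the Ubc9 cells (-0.07, adjusted p 0.643, edgeR; 0.11 with library totals alone). It fell to 77.5 and 73.8 CPM in H1 TKO libraries, against 148 and 132 CPM in H1 control libraries (-0.89 ± 0.19, adjusted p 0.0199, edgeR), a call that was lost without either TKO library, each left out in turn (adjusted p 0.341 and 0.450). Eif1ad, which encodes an eIF1A domain protein, had log2 fold changes of -0.21 after Ubc9 depletion and 0.00 in H1 TKO cells, neither called, although it was called lower without Ubc9-depleted library 2 (-0.40, adjusted p 0.00429, edgeR).

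The partners of eIF1A in initiation gave counts that moved with the scaling and the libraries used. Of 31 listed initiation factors 29 were tested, and after Ubc9 depletion 0 were called higher and 4 lower (Eif5, Eif2s3x, Eif4h and Abce1), against 21.1% of all genes called higher and 15% lower, and with a median log2 fold change of -0.20 against 0.06 over all genes. The 4 lower calls are a share near that background. With library totals alone 5 were called higher and 2 lower, against 24.3% and 6.67% of all genes. The counts also moved with the library left out, where the median log2 fold change was between -0.37 and -0.10. Eif5, the GTPase-activating partner of eIF2, had a log2 fold change of -0.39 ± 0.13 (adjusted p 0.0207, edgeR; 0.523 and 0.581 without either control library), and Eif5b, the subunit-joining GTPase, one of -0.13 (adjusted p 0.471). In H1 TKO cells 1 was called higher (Eif2s2) and 0 lower, against 8.59% and 8.43% of all genes, with a median of 0.09 against -0.02. These counts moved on leaving out an H1 control library. The median was then 0.19 without library 1 and 0.04 without library 2, against 0.03 over all genes in each. Eif1, which works beside eIF1A in scanning, had a log2 fold change of 0.04 in H1 TKO cells, -0.24 without control library 1 and 0.39 without control library 2.

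Genes related to Gm20767 rose after Ubc9 depletion. Of 6 Tcstv-like genes in the tables that match its coding sequence, all 6 were called higher after Ubc9 depletion, with log2 fold changes of 2.28 to 4.03 and a median of 3.37, against 21.1% of all genes called higher, and 6 were without Ubc9-depleted library 1. Of these 6, 1 reached the filter's limit in both Ubc9-depleted libraries but not in both Ubc9 control libraries, so that count is a description. In 1 fit of 8 libraries 5 of the 6 were called higher after Ubc9 depletion. In H1 TKO cells 5 were tested and called higher, against 8.59% of all genes. Of these, 4 did not reach the filter's limit in both H1 control libraries, so the count is a description. On leaving out a library up to 6 of these genes were tested, and fewer were called without either TKO library. The median log2 fold change was then between 3.58 and 4.26. AF067061, 1 of the 5, had 21 and 29 counts in H1 TKO and 0 and 1 in H1 control libraries. Tcstv3 was at 17.1 and 20.2 CPM in Ubc9-depleted libraries and at 0.967 and 1.33 CPM in Ubc9 control libraries (4.03 ± 0.16, adjusted p 3.16e-18, edgeR). In the H1 cells it was at 1.99 and 1.69 CPM in TKO libraries and at 0.164 and 0.504 CPM in control libraries (2.47 ± 0.66, adjusted p 0.0438, edgeR), a call lost without either TKO library (adjusted p 0.173 and 0.0986). The difference between comparisons was 1.52 for Tcstv3 (adjusted p 0.0834, edgeR; 0.0151 without the filter on low counts) and -0.48 for Gm20767 (adjusted p 0.360).

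The wider 2-cell programme is given from a list chosen with these results known and holding Gm5039, Tcstv1, Tcstv3 and AF067061 from above. Of 36 listed genes 34 were in the tables and 31 were tested in each comparison. After Ubc9 depletion 28 were called higher and 0 lower (median 3.20), against 21.1% and 15% of all genes, and the counts were the same without Ubc9-depleted library 1. In H1 TKO cells 27 were called higher and 0 lower, against 8.59% and 8.43% of all genes. Both counts are a description. In the H1 cells 14 of the 31 tested did not reach the filter's limit in both control libraries, and in the Ubc9 cells 2 of 31 did not. Without H1 control library 1 or 2, 28 were called higher and 1 lower (Obox6). Without H1 TKO library 1 or 2, 23 and 22 were called higher and 0 lower. Zscan4d, a telomere-linked marker of 2-cell-like cells, had 124 and 131 CPM in Ubc9-depleted and 4.05 and 3.26 CPM in Ubc9 control libraries (5.12 ± 0.15), and 23.9 and 23.1 CPM in H1 TKO and 1.84 and 0.427 CPM in H1 control libraries (4.35 ± 0.58). Usp17le, a deubiquitinase-family gene, rose by 4.50 ± 0.15 in the Ubc9 cells and by 3.74 ± 0.26 in the H1 cells, and Zfp352, a zinc finger gene, by 2.40 ± 0.29 and 5.46 ± 0.71. Dux, the factor upstream of the programme, had 138 and 73 counts in Ubc9-depleted and 6 and 3 counts in Ubc9 control libraries and rose by 4.59 ± 0.90 (adjusted p 2.24e-04, edgeR; 0.0529 and 0.115 without either control library). In H1 TKO libraries Dux had 10 and 15 counts, against 10 and 0 in H1 control libraries, and was not called (1.40, adjusted p 0.499, edgeR).

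Among 29 known regulators of the programme, 1 was called higher and 12 lower after Ubc9 depletion, against 21.1% and 15% of all genes tested. Their median log2 fold change was -0.30, against 0.06 over all genes. With library totals alone the split was 4 and 4, against 24.3% and 6.67% of all genes. In 1 fit of 8 libraries it was 0 and 2 (Pcgf6 and Uhrf1), against 6.48% and 2.85% of all genes. The number called lower thus depended on the fit. The split also moved with the library left out, where the median was between -0.43 and -0.21. Pcgf6, a subunit of a non-canonical Polycomb complex, was at 37.9 and 38.8 CPM in Ubc9-depleted libraries and at 56.3 and 59.3 CPM in Ubc9 control libraries, and fell by 0.59 on the log2 scale (adjusted p 1.26e-04, edgeR), a call that held under every alternative. Chaf1a, a subunit of the replication-linked chaperone CAF-1, fell by 0.38 (adjusted p 0.0148, edgeR; 0.274 and 0.344 without either control library). Trim28, a corepressor recruited by zinc finger proteins, was not called in the Ubc9 cells (-0.18, adjusted p 0.303, edgeR) or in the H1 cells (0.72, adjusted p 0.0650; 0.0195 with DESeq2). In H1 TKO cells 2 of the 29 regulators were called higher (Setdb1 and Dppa2) and 2 lower (Lin28a and Cbx3), against 8.59% and 8.43% of all genes. Both counts are shares near that background, and they moved with the library left out. The median log2 fold change was -0.21, against -0.02 over all genes, and between -0.33 and -0.05 on leaving out a library. Dppa2, an activator of Dux, was at 278 and 316 CPM in H1 TKO libraries and at 156 and 139 CPM in H1 control libraries (1.01 ± 0.19, adjusted p 0.0126, edgeR; 0.157 and 0.315 without either TKO library).

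The genes most like the 6-member sum in pattern were sought among 14261 candidate genes. The measure was the root-mean-square difference, over 8 libraries, between the log2(CPM + 0.5) profiles of the sum and of each gene, both centred within each comparison. Gm5039 was the closest at 0.151 log2 units, against a median of 1.77 over all candidates. Zscan4a (0.207), Usp17le (0.300), Gm4971 (0.322), Zscan4f (0.324), Acot1 (0.334), Zscan4c (0.336) and Zscan4b (0.363) followed. The log2 fold changes of these 8 were 3.36 to 4.93 in the Ubc9 cells and 3.26 to 4.83 in the H1 cells. The 8 were picked by this profile, so fold changes near those of the sum follow from the choice. Gm4971 and Acot1, an acyl-CoA thioesterase, were on no list used here. The members themselves lay 0.368 (Gm20767) to 1.08 (BB287469) from their sum, farther than each of the 8. By this measure likeness to the sum is therefore not likeness to each copy. The added 0.5 CPM damps changes at low levels and so enters these distances. BB287469, for instance, was at 0.0228 and 0.274 CPM in H1 TKO libraries.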

How the data were processed

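Raw counts per gene were used as the authors deposited them, in 1 table per comparison. Per the submitters' processing notes, cutadapt, STAR, HTSeq and DESeq2 were used with mm10; for the role and version of each, the counting annotation, strand and the treatment of multiply mapped reads: not given in the sources used here. Each comparison was fitted alone with edgeR 4.0.16 in R 4.3.3: filterByExpr (minimum count 10, minimum total 15), TMM factors, quasi-likelihood F test, Benjamini-Hochberg adjustment over all genes tested at 0.05. SE is the log2 fold change divided by the square root of F. Libraries in a group were treated as replicates; each pair differed beyond counting noise. CPM (counts per 1000000) use TMM-scaled library sizes. Members, gene lists, named genes and the rule for similar genes were chosen with earlier results of these data known. Named genes were the members, targeted genes, canonical eIF1A genes, copies at least 90% identical in coding sequence, up to 5 genes per list, and the 8 most similar genes; Tcstv1 and AF067061 are named as matches of Gm20767, and genes listed beside a count of 5 or fewer were named after their values were seen. Loci and sequences came from GENCODE M21 (GRCm38), with 50- and 100-base windows compared on both strands and blastn at an E-value of 1e-10. Alternatives were DESeq2 1.42.0, RLE factors, library totals, no filter, 1 fit of 8 libraries, a replicate block, and each library left out, where a lone library was assumed to vary like the other group. Sums without Gm20767 or with relatives were chosen after seeing the data, as were the counts of lists and named genes under each alternative. The fit was tested on simulated counts. Reads and splicing were not analysed here, and 1 item is not reported here.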

Additional observations from a re-analysis of the deposited data

Results flagged for a closer look

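Gm5662 was called as moving differently in the Ubc9 and H1 comparisons, where 8.08% of all genes were called in that direction and 6.43% in the other. Its log2 fold change was higher by 1.58 after Ubc9 depletion than in H1 TKO cells, tested as an interaction in 1 edgeR fit of all 8 libraries, with both Ubc9-depleted and both H1 TKO libraries above their own controls. The difference was between 1.15 and 1.88 under the alternatives, with adjusted p-values up to 0.0359. The relative Gm21319 had a larger difference (2.46, adjusted p 0.00475, edgeR). Gm2016, which shared 72.1% of the 50-base windows of Gm5662, had one of 0.48 that was not called (adjusted p 0.593, edgeR). How reads shared by copies were counted is not given in the sources used here. Kit, line and comparison cannot be told apart.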

How the results depend on the processing

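All 60 member values of the Ubc9 comparison kept their direction and call. Of 50 in the H1 comparison 44 did, 2 lost the call and 4 gained it, and of 78 differences between comparisons 62 did, 8 gained the call and 8 changed sign. The sign changes were for BB287469 with DESeq2 (-0.25), with RLE factors (-0.046) and on leaving out a library (-2.69 to 2.80), for Gm8300 (-0.69) and Gm2016 (-0.999) without H1 control library 1, and for Gm2022 (0.45) without H1 control library 2, with ranges on leaving out a library of -0.69 to 2.83, -0.999 to 1.12 and -5.01 to 0.45; the cause was not tested. The sum over the members had a log2 fold change of 4.12 with library totals alone and 3.80 to 4.01 on leaving out a library in the Ubc9 cells, and of 2.56 without Gm20767 and 2.94 to 3.59 on leaving out a library in the H1 cells. Members called as differing numbered 2 without the filter on low counts and 1 to 3 on leaving out a library.

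Over all genes, library totals alone gave 4005 higher and 1100 lower calls in the Ubc9 comparison, a share of 78.5% higher, against 58.5% in the main fit. A single fit of 8 libraries gave 1100 higher and 483 lower in the Ubc9 comparison and 2205 and 2158 in the H1 comparison, and no filter gave 1630 and 1895 in the H1 comparison. Leaving out a library gave 1230 to 8428 higher and 795 to 4610 lower in the Ubc9 comparison and 617 to 3992 and 488 to 4038 in the H1 comparison. The deviations of libraries with the same number had a correlation of -0.003 in the Ubc9 and 0.156 in the H1 comparison, and 2 pairs in each are too few to take the numbers as a pairing. With the replicate block, calls were 3160 higher and 2643 lower in the Ubc9 comparison and 1732 and 1729 in the H1 comparison. Members called higher were 6 and 5, against 19.2% and 11.7% of all genes. As differing between comparisons 2 members were called, against 9.82% of all genes in that direction. At H1 control depth a member is read from 0 to 68 counts, which limits every H1 fold change of a single copy.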
